A study of Mus musculus with 15 samples.

Results

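Messenger RNA of 38 autophagy genes was followed in mouse B cells at 3 stages, the naive cell, the activated cell and the plasmablast, with and without an inhibitor of the histone methyltransferase EZH2. The genes were chosen by symbol, for their place in the pathway, from the 21669 genes with a symbol in the expression table. They comprised 5 genes of the initiation complex around *Ulk1*, 6 of the phosphatidylinositol 3-kinase complex that starts the membrane, 5 for lipid transfer and phosphoinositide binding, 7 of the conjugation machinery, 4 *Atg4* proteases, 5 of the LC3 and GABARAP family, 3 receptors and the 3 transcription factors *Tfeb*, *Tfe3* and *Mitf*. Of the 38, 37 passed the filter on low values and were among the 11299 genes tested, and the remaining gene, *Mitf*, is given by its levels alone.

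Autophagy encloses cytoplasm, protein aggregates or organelles in a double membrane that fuses with the lysosome. The ULK1 kinase complex starts the process, a lipid kinase complex marks the growing membrane, and a ubiquitin-like conjugation system couples LC3 and GABARAP proteins to its lipids, where receptors such as SQSTM1 dock with their cargo. Tfeb and its relatives are known to drive genes of autophagy and of the lysosome, and in cells that secrete antibody autophagy is known to temper the load on the endoplasmic reticulum.

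Splenic B cells that lacked CD43 (nB) came from female wild-type C57BL/6J mice, whose age the labels do not give. Such cells were also stimulated in culture with LPS, Il2 and Il5 and received either DMSO, the solvent, or GSK343, the EZH2 inhibitor. They were then sorted into B220+GL7+CD138- activated B cells (actB) and CD138+ plasmablasts (Pb), so each culture group shared the LPS and cytokine stimulus and nB had neither culture nor solvent. The labels of the Pb GSK343 libraries name Il6 in place of Il5, whereas the treatment protocol of the same records and the methods of the study name Il5 for all cultures; if the label holds, the drug and the cytokine cannot be told apart in Pb. There were 5 groups of 3 deposited columns numbered m1 to m3, and the labels do not say whether a number is an animal, so p-values measure the spread between these samples.

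Each library held 19421830 to 26307413 reads in genes, and a count of 3 reads corresponded to 0.114 to 0.1545 RPM, the unit in which reads of a library are scaled to a sum of 1000000. Replicates 1 and 2 of nB differed by less than the sampling noise (chi-square per degree of freedom 0.00958) and were counted as 1 sample, which leaves 14 libraries and n = 2 for nB. Replicate 2 of each cultured group stood apart from replicates 1 and 3: pairs with replicate 2 had a chi-square per degree of freedom of 16.7 to 29.7 in actB and 7.64 to 11.4 in Pb, against 3.58 to 6.07 for replicates 1 and 3. The cell labels were checked by markers: summed plasmablast markers (*Sdc1*, *Prdm1*, *Xbp1*, *Irf4*, *Jchain*) reached 3065 to 3215 RPKM in Pb DMSO against 485 to 522 in actB DMSO. The nB libraries also held 20.7 to 22.7 RPKM over 6 T cell markers and 233 to 287 RPKM over 11 myeloid markers, all detected, with 9.64 to 11.7 RPKM over 3 NK cell and 30.5 to 134 over 2 erythroid markers, while the T cell sum stayed below 0.7 RPKM elsewhere. In actB DMSO the myeloid sum was 13.7 to 17.01 RPKM with 3 of 11 markers at 0, and in Pb DMSO it was 118 to 356 RPKM with 3 of 11 at 0, nearly all of it *Ly6c2*. In bulk RNA, fewer cells of a kind and less RNA per cell cannot be told apart.

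Promoter windows were available in the RefSeq table (GRCm38.p6) for 32 of the 38 genes, 1 to 3 windows each, and were searched on both strands for 5 motifs of factors that are known to act on autophagy genes. The E-box core CACGTG, which the Tfeb family binds, lay in a window of 4 of the 32 genes (*Atg3*, *Atg5*, *Atg7* and *Atg14*), or 12.5%, against 12% of the 8964 tested genes that had a window, so its share was near that of tested genes at large. The longer palindrome TCACGTGA, which contains the E-box, lay in *Atg3* only (3.12% against 2.42%). The Atf4 motif TGATGNAA, the Xbp1 motif TGACGTGG and the forkhead motif GTAAACA were in no window of the 32 genes, against 2.83%, 1.06% and 3.07% of tested genes. For 32 genes, 0 is near shares this low, and sequence outside these short windows was not searched. Windows are printed 5′ to 3′ on the strand of the gene. The first pair carries the E-box, in capitals, with the flanking bases also in capitals where they complete the longer palindrome. In *Atg3* the E-boxes start 94 and 71 bases before the annotated start, and in *Atg5* the E-box starts 14 bases before it. The second pair belongs to *Wipi1* and *Gabarapl1*, which had the largest changes with stage and with GSK343 in Pb, and holds none of the 5 motifs.
*Atg3* (chr16:45158579-45158878, plus strand): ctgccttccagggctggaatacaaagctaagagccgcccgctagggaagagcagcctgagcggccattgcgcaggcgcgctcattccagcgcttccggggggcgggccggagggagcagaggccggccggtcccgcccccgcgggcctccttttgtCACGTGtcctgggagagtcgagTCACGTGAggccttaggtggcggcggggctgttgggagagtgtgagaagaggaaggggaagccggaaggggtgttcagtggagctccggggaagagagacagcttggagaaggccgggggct
*Atg5* (chr10:44268089-44268388, plus strand): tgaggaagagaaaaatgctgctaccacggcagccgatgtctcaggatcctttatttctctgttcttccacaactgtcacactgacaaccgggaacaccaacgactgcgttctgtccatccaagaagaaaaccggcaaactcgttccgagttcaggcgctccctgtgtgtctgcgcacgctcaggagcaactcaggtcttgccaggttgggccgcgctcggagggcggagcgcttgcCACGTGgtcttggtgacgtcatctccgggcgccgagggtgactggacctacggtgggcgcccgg
*Wipi1* (chr11:109611340-109611639, minus strand): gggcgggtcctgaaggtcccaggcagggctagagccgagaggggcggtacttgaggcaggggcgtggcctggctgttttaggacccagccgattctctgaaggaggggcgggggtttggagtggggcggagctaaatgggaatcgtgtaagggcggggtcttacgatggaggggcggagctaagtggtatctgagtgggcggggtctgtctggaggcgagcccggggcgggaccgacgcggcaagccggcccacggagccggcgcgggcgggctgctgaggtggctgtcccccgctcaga
*Gabarapl1* (chr6:129532942-129533241, plus strand): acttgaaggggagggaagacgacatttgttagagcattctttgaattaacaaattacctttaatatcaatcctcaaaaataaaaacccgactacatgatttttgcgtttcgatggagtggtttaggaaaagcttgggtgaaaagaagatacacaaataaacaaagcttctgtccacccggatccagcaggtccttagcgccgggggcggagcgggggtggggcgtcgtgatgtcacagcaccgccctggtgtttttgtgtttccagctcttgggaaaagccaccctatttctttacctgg

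Levels are given as RPKM, which is RPM divided by gene length in kilobases, so that genes can be set beside each other. The genes spanned a wide range: *Gabarap*, a membrane-coupled ubiquitin-like protein, had the highest nB mean at 198 ± 16.1 RPKM (SD, n = 2), and *Wipi1*, a phosphoinositide reader, had the lowest of the genes tested at 0.378 ± 0.00804 RPKM. The median over the tested genes of the pathway was close to that of all tested genes in each group, 14.2 against 10.9 RPKM in nB and 12.8 against 10.5 RPKM in Pb DMSO. Replicates lay close together, with a median SD of 0.051 to 0.083 on the log2 scale across the 5 groups. Ratios of the highest to the lowest group mean ran from 1.09 for *Tfe3* to 54.6 for *Wipi1*, the latter set by Pb GSK343 over an nB mean under 1 RPKM.

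**Figure D1:**
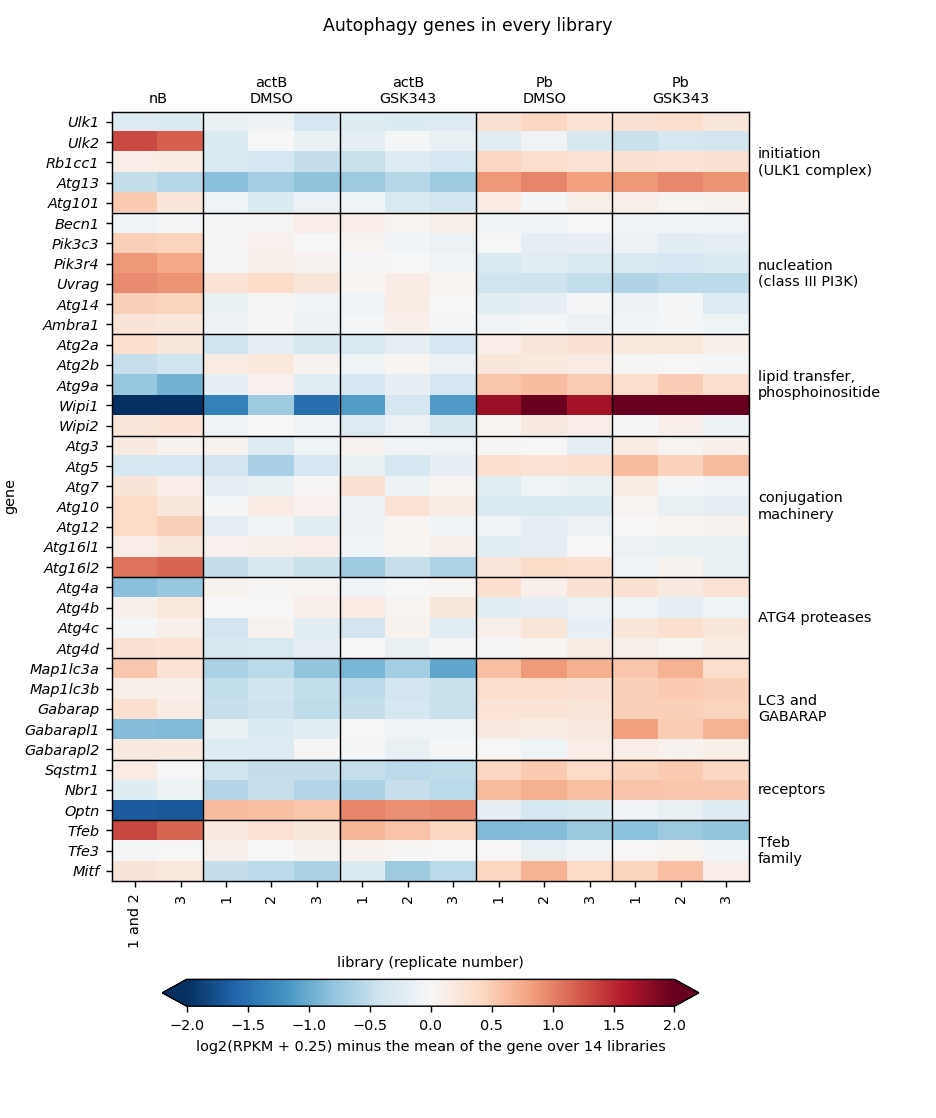
Heat map of the 38 autophagy genes (rows, by role) in 14 libraries (columns, by group and replicate number). Colour is log2(RPKM + 0.25) minus the mean of that gene over the 14 libraries, cut at -2 and 2. *Wipi1* and *Optn* are lowest in nB, *Tfeb*, *Ulk2* and *Atg16l2* are highest there, and the LC3 and GABARAP rows are mostly below their mean in actB and above it in Pb.

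Most of the pathway was lower in activated than in naive B cells, and much of it was higher in plasmablasts than in activated cells. In actB DMSO against nB, 6 of the 37 tested genes rose and 22 fell (limma on log2(RPKM + 0.25), Benjamini-Hochberg adjusted p under 0.05), with a median log2 fold change of -0.31. Among all 11299 genes 40.9% were called higher and 36.3% lower in that comparison, with a median of 0.053. In Pb DMSO against actB DMSO, 18 of 37 rose and 8 fell with a median of 0.18, against a background of 27.3% higher and 42.4% lower and a median of -0.12. Between the end points the balance was even: in Pb DMSO against nB 14 rose and 15 fell, with 39.5% of all genes higher and 41.1% lower. Since the median gene was lower in Pb than in actB, each library was also scaled to a common median, and then 20 of the 37 rose and 5 fell while all genes split into 3813 higher and 3899 lower. Without replicate 2 of the cultured groups, 17 rose and 6 fell at that step, against 6 and 22 from nB to actB and 13 and 16 from nB to Pb. Over all 11299 genes the counts were then 3099 higher and 4808 lower, 4797 and 4297, and 4660 and 4737, in that order. These comparisons share the actB DMSO or nB libraries and are not independent of each other, and the markers of other cells in nB moved with both nB comparisons, where their part was not tested.

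In the initiation complex, *Atg13*, the adaptor that holds ULK1 to its scaffold, had the largest change. Its RPKM was 16.97 and 15.9 in nB, 13.1, 14.6 and 13.4 in actB DMSO, and 43.01, 46.5 and 41.99 in Pb DMSO. Every Pb library lay above every library of the other stages, and *Atg13* was 3.21-fold higher in Pb than in actB (log2 fold change 1.66, SE 0.062, adjusted p = 3.07e-10) and 2.67-fold higher than in nB (log2 fold change 1.40, SE 0.069, adjusted p = 8.52e-10). *Ulk1*, the kinase itself, stood at 5.74 and 5.67 RPKM in nB and 6.27, 6.42 and 5.43 in actB DMSO, with overlapping libraries (adjusted p = 0.371). It then reached 8.62, 9.28 and 8.40 RPKM in Pb DMSO, 1.45-fold above actB (log2 fold change 0.52, SE 0.068, adjusted p = 2.14e-05). Its close relative *Ulk2* fell at the earlier step instead.

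*Ulk2* measured 14.9 and 13.6 RPKM in nB, 4.79, 5.81 and 5.31 in actB DMSO and 4.96, 5.55 and 4.61 in Pb DMSO. It fell 2.68-fold between nB and actB (log2 fold change -1.39, SE 0.096, adjusted p = 3.88e-08), and actB and Pb overlapped (adjusted p = 0.491). By mean RPKM, *Ulk2* was above *Ulk1* in nB (14.2 ± 0.890 against 5.70 ± 0.0488, SD, n = 2) and below it in Pb DMSO (5.04 ± 0.475 against 8.77 ± 0.455, SD, n = 3). *Rb1cc1*, the scaffold FIP200, and *Atg101*, a partner of ATG13, fell by 0.51 and 0.55 on the log2 scale from nB to actB and rose by 0.72 and 0.24 from actB to Pb. Over the 5 genes, 0 rose and 4 fell from nB to actB, where 36.3% of all genes were lower. From actB to Pb 4 rose and 0 fell, a step at which 27.3% of all genes were higher. Against nB, the Pb calls of *Rb1cc1* (higher, log2 fold change 0.20) and *Atg101* (lower, -0.30) were lost with the replicate number as a block. That fit held 1 nB library, so the block and the smaller nB group cannot be told apart.

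Genes of the nucleation complex were called only lower between these 3 groups. From nB to actB 0 of its 6 genes rose and 5 fell, from actB to Pb 0 rose and 3 fell, and in Pb against nB 0 rose and 5 fell. In the same order 36.3%, 42.4% and 41.1% of all genes were lower, so the 50% of the later step was near the share of all genes. *Uvrag*, the subunit of the complex that acts in endosomes and in autophagosome maturation, measured 28.9 and 28.1 RPKM in nB, 17.99, 19.3 and 17.6 in actB DMSO and 11.3, 11.2 and 10.5 in Pb DMSO. No library of one stage reached another, and the level fell 1.56-fold at the earlier step (log2 fold change -0.63, SE 0.058, adjusted p = 5.94e-07) and 1.67-fold at the later one (log2 fold change -0.72, SE 0.052, adjusted p = 8.65e-08). *Pik3r4*, the regulatory subunit VPS15, dropped from 11.9 and 11.1 RPKM in nB to 6.29, 6.89 and 6.74 in actB DMSO and 5.14, 5.50 and 5.17 in Pb DMSO, which was 2.18-fold lower in Pb than in nB (log2 fold change -1.09, SE 0.064, adjusted p = 4.67e-09). The catalytic subunit *Pik3c3* (VPS34), *Atg14* and *Ambra1* fell from nB to actB by 0.43, 0.51 and 0.31 on the log2 scale. The remaining member, *Becn1*, the Beclin 1 scaffold of the complex, stood at 41.7 ± 0.0771 RPKM in nB (SD, n = 2), 44.5 ± 2.39 in actB DMSO and 41.7 ± 1.18 in Pb DMSO (SD, n = 3). None of the comparisons of these 3 groups called it, with 95% intervals of -0.019 to 0.20 for actB against nB and -0.19 to 0.0049 for Pb against actB on the log2 scale; with the replicate block the latter was called lower (adjusted p = 0.0450).

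*Wipi1* changed more than any other autophagy gene here. It lies on the minus strand at chr11:109434645-109473281 (mm9) and encodes a protein that binds phosphatidylinositol 3-phosphate on the forming membrane. Its RPKM was 0.384 and 0.372 in nB, 1.55, 2.55 and 1.37 in actB DMSO and 14.99, 17.9 and 14.4 in Pb DMSO. All Pb libraries were above all actB libraries, and these above both nB libraries, with replicate 2 the highest in actB and in Pb. The gene was 4.82-fold higher in actB than in nB (log2 fold change 1.68, SE 0.25) and 8.66-fold higher in Pb than in actB (log2 fold change 2.99, SE 0.22, adjusted p = 1.15e-07). Its paralog *Wipi2* had 27.4 ± 0.499 RPKM in nB (SD, n = 2), 22.2 ± 0.497 in actB DMSO and 24.7 ± 1.24 in Pb DMSO (SD, n = 3), a small fall at the earlier step (log2 fold change -0.30 with an adjusted p of 0.00252) and no call at the later one (adjusted p = 0.0594, or 0.0111 with the replicate block). The *Wipi1* level in nB was under the filter of 1 RPKM, which the gene passed in the cultured libraries. Its fold over nB therefore rests on a low level, with 27 reads at the fewest over all libraries. *Wipi1* could be tested against nB only because it is higher in culture. It stays in the counts of genes higher than in nB, and its p against nB is not given. In means, *Wipi1* was below *Wipi2* at each stage, and the distance was smallest in Pb DMSO.

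*Atg9a*, the membrane-spanning lipid scramblase that seeds the membrane, rose at both steps, from 4.95 and 4.31 RPKM in nB to 7.59, 9.11 and 7.36 in actB DMSO and 12.6, 13.2 and 12.3 in Pb DMSO. The rise was 1.73-fold (log2 fold change 0.76, SE 0.10, adjusted p = 1.60e-05) and then 1.58-fold (log2 fold change 0.65, SE 0.089, adjusted p = 2.92e-05). The lipid transfer paralogs *Atg2a* and *Atg2b* differed. From nB to actB *Atg2a* fell by 0.59 on the log2 scale, whereas *Atg2b* rose by 0.58 (adjusted p = 1.56e-05 and 3.03e-06). From actB to Pb *Atg2a* rose by 0.53 (adjusted p = 2.01e-05), and the value for *Atg2b* was 0.046 (adjusted p = 0.492).

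Of the 7 genes for the conjugation machinery, 0 rose and 3 fell from nB to actB, 2 rose and 2 fell from actB to Pb, and 1 rose and 5 fell in Pb against nB. The 42.9% lower at the earlier step and the 28.6% higher at the later one were near the 36.3% and 27.3% of all genes. Other shares lay further off. At the earlier step 0% were higher, against 40.9% of all genes, and at the later one 28.6% were lower, against 42.4%. In Pb against nB 14.3% were higher and 71.4% lower, against 39.5% and 41.1% of all genes. *Atg16l2*, a paralog of the *Atg16l1* subunit that places the conjugation enzyme on the membrane, was at 43.1 and 45.4 RPKM in nB, 14.5, 16.1 and 14.8 in actB DMSO and 23.9, 26.1 and 25.3 in Pb DMSO. It fell 2.93-fold (log2 fold change -1.53, SE 0.084, adjusted p = 4.09e-09) and then rose 1.66-fold (log2 fold change 0.72, SE 0.075, adjusted p = 2.52e-06), remaining below nB. *Atg5*, which is joined to ATG12 in the enzyme that lipidates LC3, was not called between nB and actB (95% interval -0.30 to 0.11 on the log2 scale) and rose from 18.2, 15.1 and 18.8 RPKM in actB DMSO to 30.2, 28.97 and 29.8 in Pb DMSO (log2 fold change 0.77, SE 0.084, adjusted p = 4.04e-06). *Atg12* itself fell from 20.8 ± 0.735 RPKM in nB (SD, n = 2) to 13.7 ± 0.848 in actB DMSO (SD, n = 3; adjusted p = 3.20e-06) and was not called between actB and Pb (95% interval -0.10 to 0.16).

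*Atg10*, the enzyme that passes ATG12 to ATG5, was low throughout. It had 3.78 and 3.39 RPKM in nB, 2.81, 3.22 and 3.05 in actB DMSO and 2.27, 2.28 and 2.30 in Pb DMSO, and it fell 1.32-fold from actB to Pb (log2 fold change -0.37, SE 0.11, adjusted p = 0.00771), a call that edgeR with RLE factors did not make (adjusted p = 0.0786). *Atg16l1* also fell at that step (log2 fold change -0.24 with an adjusted p of 0.00888). *Atg3*, which transfers LC3 to lipid, and *Atg7*, which activates the ubiquitin-like proteins, had log2 values of -0.21 (adjusted p = 0.0561) and -0.29 (adjusted p = 0.0311) between nB and actB, and neither was called between actB and Pb. The *Atg7* call was lost with the replicate block, a fit that held 1 nB library.

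Among the *Atg4* proteases, which trim LC3 and GABARAP and release them from lipid, *Atg4a* rose from 8.77 and 9.30 RPKM in nB to 16.6, 16.2 and 16.5 in actB DMSO and 20.1, 16.9 and 19.6 in Pb DMSO. Its rise over nB was 1.82-fold in actB (log2 fold change 0.84, SE 0.073, adjusted p = 3.25e-07) and 2.09-fold in Pb (log2 fold change 1.04, SE 0.073, adjusted p = 2.83e-08). *Atg4b* was lower in Pb than in nB (log2 fold change -0.33 with an adjusted p of 6.75e-04), and so was *Atg4d* (-0.24 with an adjusted p of 0.00666). The *Atg4d* call was lost with the replicate block, a fit that held 1 nB library. *Atg4c*, the least abundant of the 4, was not called between any of the 3 stages; its smallest adjusted p was 0.159, for Pb against actB.

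The LC3 and GABARAP family dipped in activated cells. Summed over its 5 genes, the level was 370 to 395 RPKM in nB, 257 to 266 in actB DMSO and 395 to 400 in Pb DMSO. From nB to actB 1 of the 5 genes rose and 4 fell, and from actB to Pb all 5 rose, where 36.3% of all genes were lower at the earlier step and 27.3% higher at the later one. *Map1lc3b*, the LC3 form most often used to mark autophagosomes, had 72.3 and 71.2 RPKM in nB, 47.5, 50.4 and 47.1 in actB DMSO and 85.5, 85.2 and 82.8 in Pb DMSO. It fell 1.49-fold (log2 fold change -0.57, SE 0.052, adjusted p = 5.46e-07) and rose 1.75-fold (log2 fold change 0.80, SE 0.046, adjusted p = 1.18e-08) without overlap between any of the 3 groups. *Gabarap* followed the same course at a higher level, with 209 and 186, then 122, 126 and 117, then 202, 203 and 199 RPKM. It fell 1.63-fold (log2 fold change -0.70, SE 0.056, adjusted p = 1.62e-07) and rose 1.66-fold (log2 fold change 0.73, SE 0.050, adjusted p = 5.68e-08), and Pb and nB overlapped (log2 fold change 0.027, adjusted p = 0.662; after quantile normalization -0.16, adjusted p = 0.0426).

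*Map1lc3a*, the family member with the fewest reads (64 to 221 per library), was 8.95 and 7.47 RPKM in nB, 3.81, 4.08 and 3.42 in actB DMSO and 9.32, 11.2 and 10.1 in Pb DMSO. It fell 2.18-fold (log2 fold change -1.07, SE 0.13, adjusted p = 9.19e-06) and rose 2.71-fold (log2 fold change 1.38, SE 0.12, adjusted p = 4.48e-07). *Gabarapl2* moved least of the family, by -0.35 and then 0.18 on the log2 scale, and the later step was close to the threshold with overlapping libraries (adjusted p = 0.0471). *Gabarapl1* rose at both steps, from 6.84 and 6.77 RPKM to 11.6, 10.6 and 10.9 and 14.5, 14.2 and 14.4, by 1.62-fold and then 1.30-fold (adjusted p = 5.07e-06 and 4.34e-04). Its share of the summed family RPKM was 1.78% ± 0.070 in nB (SD, n = 2) and 4.22% ± 0.27 in actB DMSO (SD, n = 3). How reads that also match processed copies of these short genes were treated is not given in the sources used here.

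The receptors parted. *Sqstm1*, the p62 receptor that binds ubiquitin and LC3, measured 117 and 104 RPKM in nB, 78.6, 74.8 and 75.02 in actB DMSO and 138, 150.0 and 135 in Pb DMSO. It fell 1.45-fold (log2 fold change -0.53, SE 0.061, adjusted p = 4.84e-06) and rose 1.85-fold (log2 fold change 0.89, SE 0.055, adjusted p = 2.16e-08), ending 1.28-fold above nB (log2 fold change 0.35, SE 0.061, adjusted p = 1.59e-04). *Nbr1*, a related receptor, had 28.7 and 31.8 RPKM in nB, 22.7, 24.9 and 22.8 in actB DMSO and 53.04, 56.2 and 51.8 in Pb DMSO, a fall of 1.29-fold (adjusted p = 2.66e-04) and a rise of 2.29-fold (log2 fold change 1.19, SE 0.059, adjusted p = 3.10e-09).

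*Optn*, the optineurin receptor for bacteria and mitochondria (chr2:4941688-4985097, minus strand, mm9), peaked in activated cells. It had 2.99 and 2.91 RPKM in nB, 15.5, 15.4 and 14.8 in actB DMSO and 8.95, 7.82 and 8.20 in Pb DMSO, with no overlap between the 3 groups. It rose 5.16-fold (log2 fold change 2.27, SE 0.072, adjusted p = 2.93e-11) and fell 1.83-fold (log2 fold change -0.86, SE 0.064, adjusted p = 1.21e-07). The 3 receptors together made up 138 to 149 RPKM in nB, 113 to 117 in actB DMSO and 195 to 214 in Pb DMSO, and *Optn* was 13.3% ± 0.12 of that sum in actB DMSO (SD, n = 3) against 2.06% ± 0.067 in nB (SD, n = 2). Exons annotated on the other strand overlap *Optn*, *Sqstm1*, *Gabarapl1*, *Rb1cc1*, *Becn1* and *Atg4d*, and since the use of strand in counting is not stated, reads of these neighbours cannot be told apart from theirs.

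Of the transcription factors, *Tfeb* (chr17:47873979-47929368, plus strand, mm9) fell step by step while *Tfe3* was not called at either step. *Tfeb* measured 39.4 and 34.9 RPKM in nB, 17.7, 19.01 and 18.2 in actB DMSO and 8.28, 8.35 and 9.19 in Pb DMSO, and no library of one stage reached another. It fell 2.03-fold (log2 fold change -1.01, SE 0.080, adjusted p = 1.36e-07) and again 2.13-fold (log2 fold change -1.07, SE 0.071, adjusted p = 4.14e-08), 4.32-fold in all from nB to Pb (log2 fold change -2.08, SE 0.080, adjusted p = 7.93e-11). *Tfe3* had 10.8 and 11 RPKM in nB, 11.96, 11.03 and 11.7 in actB DMSO and 11.02, 9.97 and 10.7 in Pb DMSO. Its 95% interval was -0.051 to 0.21 on the log2 scale for actB against nB and -0.25 to -0.010 for Pb against actB, where the adjusted p was 0.0504, or 0.0344 with the replicate block.

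*Mitf*, which failed the filter, had 0.429 and 0.404 RPKM in nB, 0.159, 0.143 and 0.116 in actB DMSO and 0.516, 0.667 and 0.497 in Pb DMSO, from 15 to 87 reads a library over all groups. *Tfeb* made up 76.6% ± 1.7 of the summed RPKM of the 3 factors in nB (SD, n = 2), 61% ± 1.9 in actB DMSO and 43.6% ± 1.7 in Pb DMSO (SD, n = 3), where *Tfe3* was the larger share at 53.5% ± 1.8. *Mitf* was 2.85% ± 0.58 there.

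**Figure D2:**
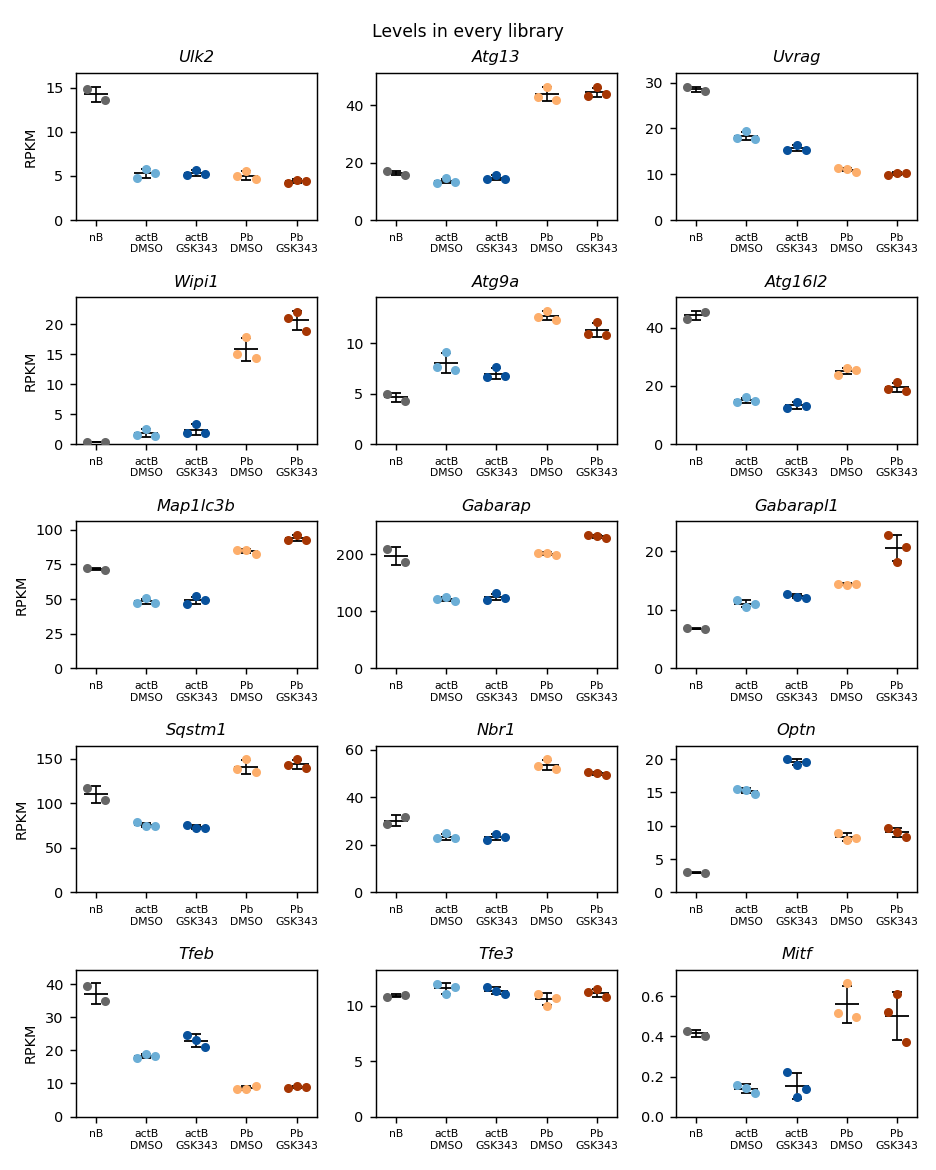
RPKM (vertical axes, each from 0) of 15 autophagy genes in every library, by group. Points are libraries, the wide tick is the group mean and the bars are 1 SD (n = 2 for nB, 3 elsewhere). *Wipi1* and *Atg13* stand highest in both Pb groups, *Optn* in actB, and *Tfeb*, *Ulk2* and *Uvrag* in nB.

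With GSK343 few of these genes were called in the reported fit, and in Pb the shares were near those of all genes. In actB, 2 of the 37 rose and 2 fell, against a background of 8.2% of all genes higher and 2.16% lower (926 and 244 of 11299; after scaling to a common median 690 and 370, with the same 2 and 2 counts among the 37). In Pb, 2 rose and 2 fell, against 7.9% higher and 5% lower. The median log2 fold change of the 37 was 0.023 in actB and 0.021 in Pb. Each count of 2 was 5.4% of the 37 genes. In actB that was below the 8.2% of all genes higher and above the 2.16% lower, on 2 genes each. With the replicate number as a block, 5 rose and 6 fell in actB, where 21% of all genes were called. The shares were 13.5% higher and 16.2% lower, against 14.7% and 6.3% of all genes. In Pb 4 rose and 3 fell with the block, where 24.3% of all genes were called. Those shares were 10.8% and 8.1%, against 13.6% and 10.7%. Without replicate 2 of the cultured groups, 4 rose and 4 fell in actB, and 4 rose and 1 fell in Pb. Over all 11299 genes the counts were then 1179 higher and 561 lower in actB, and 1127 and 850 in Pb.

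Cell markers also moved with GSK343. In actB 2 of 8 tested myeloid markers were called higher, *Itgam* (4.27 ± 0.664 to 9.95 ± 3.12 RPKM) and *Adgre1* (0.147 ± 0.0208 to 0.437 ± 0.0433), and the sum over all 11 was 13.7 to 17.01 RPKM with DMSO and 19.6 to 23.5 with GSK343, with 3 of 11 at 0 in each group. There 2 of 5 plasmablast markers were also higher (4 with the block), *Sdc1* (0.665 ± 0.121 to 0.965 ± 0.193 RPKM) and *Jchain* (177 ± 19.4 to 231 ± 32.3). The sums over the 5 were 485 to 522 and 549 to 669 RPKM. *Adgre1* and *Sdc1* had means under 1 RPKM in both actB groups and passed the filter through other groups. In Pb 0 of 7 B cell markers rose and 2 fell (5 with the block), *Ms4a1* and *Pax5* (29.1 ± 3.36 to 13.8 ± 4.65 RPKM), and their sum was 1076 to 1102 RPKM with DMSO and 915 to 1049 with GSK343. Of the plasmablast markers in Pb, *Sdc1*, which encodes the CD138 used in the sort, rose from 29.7 ± 0.826 to 55.3 ± 3.09 RPKM and *Irf4* fell from 372 ± 16.96 to 313 ± 11.6, while the sum over the 5 was 3065 to 3215 and 3129 to 3396 RPKM. In Pb 0 of the 8 myeloid markers were called. The part of these shifts in the results with GSK343 was not tested.

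Of the autophagy genes, the 2 that rose in actB were *Optn* and *Tfeb*, beside the myeloid and plasmablast markers above. *Optn* went from 15.5, 15.4 and 14.8 RPKM with DMSO to 20.03, 19.1 and 19.5 with GSK343, 1.28-fold higher with no overlap (log2 fold change 0.35, SE 0.064, adjusted p = 0.00504), and the call held in every alternative run. *Tfeb* went from 17.7, 19.01 and 18.2 to 24.8, 23.1 and 20.9 RPKM, 1.25-fold higher with no overlap (log2 fold change 0.32, SE 0.071, adjusted p = 0.0150). The *Tfeb* call was lost without DMSO replicate 1 (adjusted p = 0.0611), without DMSO replicate 3 (0.0515), without GSK343 replicate 1 (0.0613) and with the 2 groups fitted alone (0.0834), while its log2 fold change stayed at 0.26 or more in those fits.

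The 2 that fell in actB were *Uvrag* and *Atg2b*. *Uvrag* went from 17.99, 19.3 and 17.6 to 15.3, 16.5 and 15.4 RPKM (log2 fold change -0.22, SE 0.052, adjusted p = 0.0219), and *Atg2b* from 12.2, 12.6 and 11.4 to 10.2, 11.2 and 9.94 RPKM (log2 fold change -0.20, SE 0.057, adjusted p = 0.0428), each with the lowest DMSO library above the highest GSK343 library. Both calls were lost without replicate 1 or 2 of actB DMSO or without replicate 1 or 3 of actB GSK343, with adjusted p between 0.0536 and 0.0852 for *Uvrag* and between 0.1 and 0.161 for *Atg2b*, and also with the 2 groups fitted alone (0.115 and 0.181). With the block, *Atg13*, *Atg5* and *Atg4d* were also called higher (adjusted p = 0.0365, 0.0102 and 0.0215) and *Atg9a*, *Wipi2*, *Atg16l2* and *Map1lc3a* lower (adjusted p = 0.0254, 0.0140, 0.0196 and 0.0396).

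In Pb the genes that rose were both of the GABARAP branch. *Gabarapl1*, at chr6:129483218-129492349 (plus strand, mm9), went from 14.5, 14.2 and 14.4 RPKM with DMSO to 22.7, 18.2 and 20.7 with GSK343. Each GSK343 library exceeded each DMSO library, and the gene was 1.43-fold higher (log2 fold change 0.50, SE 0.070, adjusted p = 9.75e-04), a call made in every alternative run. *Gabarap* went from 202, 203 and 199 to 234, 233 and 229 RPKM, 1.15-fold higher without overlap (log2 fold change 0.20, SE 0.050, adjusted p = 0.0197). That call was lost without replicate 1 or 3 of either Pb group (adjusted p between 0.0587 and 0.0690) and under quantile normalization (adjusted p = 0.136). Summed over the LC3 and GABARAP family, Pb GSK343 held 444 to 453 RPKM against 395 to 400 in Pb DMSO.

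Those that fell in Pb were *Atg16l2* and *Atg2b*. *Atg16l2* went from 23.9, 26.1 and 25.3 to 19.1, 21.2 and 18.2 RPKM, 1.29-fold lower with no overlap (log2 fold change -0.36, SE 0.075, adjusted p = 0.00905), and was called in every alternative run. *Atg2b* went from 12.8, 12.5 and 12.1 to 10.97, 10.8 and 10.6 RPKM (log2 fold change -0.20, SE 0.057, adjusted p = 0.0347), and this call was lost when any 1 of the 6 Pb libraries was left out (adjusted p between 0.0613 and 0.120). With the block, *Map1lc3b* and *Atg5* were also called higher (adjusted p = 0.0125 and 0.00532) and *Atg9a* lower (0.0340). *Map1lc3b* was 85.5, 85.2 and 82.8 RPKM with DMSO and 92.6, 96.4 and 92.6 with GSK343, without overlap, at an adjusted p of 0.0516 without the block.

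The leading genes of the other roles were not called with GSK343. *Ulk1* had a 95% interval of -0.22 to 0.076 on the log2 scale in actB and -0.19 to 0.11 in Pb. For *Sqstm1* the intervals were -0.17 to 0.068 and -0.091 to 0.15, and for *Tfe3* they were -0.14 to 0.094 and -0.039 to 0.20. *Mitf* was 0.220, 0.0953 and 0.140 RPKM in actB GSK343 and 0.522, 0.611 and 0.371 in Pb GSK343. *Wipi1* had 1.88, 3.42 and 1.85 RPKM in actB GSK343 and 20.99, 22.02 and 18.9 in Pb GSK343, where each library lay above each Pb DMSO library, yet the spread of this gene was wide (log2 fold change in Pb 0.38, SE 0.22, adjusted p = 0.301, or 0.0644 with the block).

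**Figure D3:**
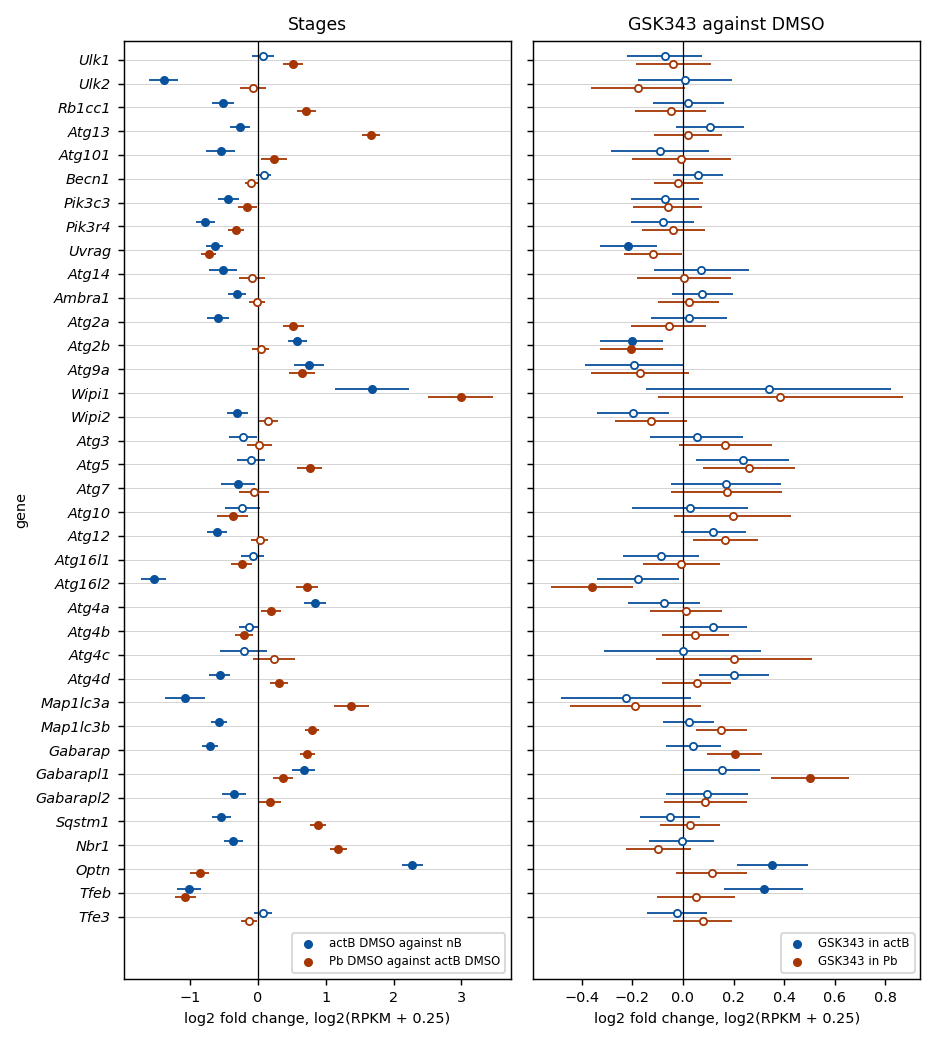
Log2 fold change (horizontal axes, on the log2(RPKM + 0.25) scale) of the 37 tested autophagy genes with 95% confidence intervals from limma. The left panel shows the earlier step (actB DMSO against nB, blue) and the later step (Pb DMSO against actB DMSO, brown), and the right panel, on a narrower axis, the response to GSK343 in actB (blue) and in Pb (brown). Filled points have an adjusted p under 0.05: 28 and 26 genes on the left, and 4 and 4 on the right.

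The difference between the GSK343 effects in Pb and in actB was tested as an interaction. None of the 37 genes was called by limma, against 0.248% of all genes, nor by edgeR with TMM or RLE factors. By limma 4 of the 37 had an unadjusted p under 0.05, as did 1017 of all 11299 genes, a similar share. The smallest p belonged to *Gabarapl1*, whose effect was larger in Pb by 0.35 on the log2 scale (SE 0.099, 95% interval 0.13 to 0.57, adjusted p = 0.204). It was called by edgeR with TMM factors and the block (0.38, adjusted p = 0.0344) and by limma without Pb GSK343 replicate 2 (0.43, adjusted p = 0.0479). For *Optn* and *Tfeb*, called in actB and not in Pb, the difference was -0.24 (SE 0.091) and -0.27 (SE 0.10), each with an adjusted p of 0.419, so their effects were not shown to differ between the cell types.

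Beyond the 38, another 27 tested genes of autophagy, for membrane fusion, selective receptors and regulation, were counted. In actB against nB 6 rose and 17 fell, in Pb against actB 15 rose and 6 fell, and in Pb against nB 10 rose and 13 fell. As shares, 22.2% were higher and 62.96% lower in actB against nB (40.9% and 36.3% of all genes), 55.6% and 22.2% in Pb against actB (27.3% and 42.4%), and 37.04% and 48.15% in Pb against nB, near the 39.5% and 41.1% of all genes. *Bnip3*, a mitophagy receptor that hypoxia is known to induce, rose from 7.24 ± 0.529 RPKM in nB (SD, n = 2) to 47.9 ± 4.27 in Pb DMSO (SD, n = 3; adjusted p = 1.74e-05). *Tmem41b*, a scramblase of the endoplasmic reticulum, rose from 6.04 ± 0.127 to 25.9 ± 1.40 RPKM (adjusted p = 3.02e-10). The Rubicon gene, listed as *1700021K19Rik* and known as a brake on autophagosome maturation, fell from 45.9 ± 0.802 to 6.81 ± 0.249 RPKM (adjusted p = 2.63e-12). *Snap29*, a SNARE for fusion with the lysosome, fell from 55.1 ± 1.29 to 13.5 ± 0.482 RPKM (adjusted p = 9.44e-12). Its partner *Stx17* was higher with GSK343 in actB (log2 fold change 0.28 with an adjusted p of 0.0151) and in Pb (0.24 with an adjusted p of 0.0277). In actB *Snap29* was higher (0.24 with an adjusted p of 0.0161) and *Tex264*, a receptor for the endoplasmic reticulum, lower (-0.26 with an adjusted p of 0.0391). In Pb *Fam134b*, another such receptor, and *Nrbf2*, a partner of the lipid kinase complex, were higher (0.42 with an adjusted p of 0.0179, and 0.19 with an adjusted p of 0.0188). Of the 27, GSK343 raised 2 and lowered 1 in actB, and raised 4 and lowered 0 in Pb; with the replicate block it raised 6 and lowered 4, and raised 7 and lowered 3. Without the block the shares were 7.41% and 3.7% in actB, near the 8.2% and 2.16% of all genes, and 14.8% and 0% in Pb, against 7.9% and 5%. With the block they were 22.2% and 14.8% in actB, against 14.7% and 6.3%. In Pb they were then 25.9% and 11.1%, against 13.6% and 10.7%.

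Lysosomal genes were also mostly lower in activated than in naive cells, and 13 of them rose with GSK343 in plasmablasts. Of 32 tested, 5 rose and 23 fell in actB against nB, 21 rose and 6 fell in Pb against actB, and 13 rose and 15 fell in Pb against nB. The 71.9% lower in actB against nB and the 65.6% higher in Pb against actB stood against 36.3% and 27.3% of all genes, while the 40.6% higher and 46.9% lower in Pb against nB were near 39.5% and 41.1%. *Gusb*, the lysosomal beta-glucuronidase, rose from 17.3 ± 1.12 RPKM in nB to 81.2 ± 0.802 in Pb DMSO (adjusted p = 3.55e-12), as did *Npc2*, a cholesterol carrier, from 34.8 ± 0.233 to 121 ± 16.98 (adjusted p = 3.54e-07). *Ctsh*, cathepsin H, fell from 239 ± 15.1 to 29.2 ± 3.05 RPKM (adjusted p = 1.30e-11). The myeloid markers of nB moved with this fall, and their part in it was not tested. With GSK343, 3 rose and 0 fell in actB, whereas 13 rose and 0 fell in Pb with a median log2 fold change of 0.19 against 0.0031 over all genes. The 13 were 40.6% of the list, against 7.9% of all genes higher in Pb, and the 3 were 9.38%, near the 8.2% in actB. B cell markers were lower and *Sdc1* higher in the same Pb comparison, as given above, and their part was not tested. In Pb *Ctsh* rose from 29.2 ± 3.05 to 48.5 ± 5.54 RPKM (adjusted p = 3.23e-04), *Hexa*, a hexosaminidase subunit, from 28.5 ± 3.83 to 47.02 ± 2.79 (adjusted p = 6.62e-04), and the peptidase *Tpp1* from 17.4 ± 0.507 to 24.8 ± 1.58 (adjusted p = 3.91e-04). In actB *Hexa* and the proton pump subunits *Atp6v0d1* and *Atp6v1a* were higher, by 0.47, 0.29 and 0.31 on the log2 scale. With the replicate block 6 rose and 3 fell in actB and 21 rose and 1 fell in Pb. The Pb shares with the block were 65.6% higher and 3.1% lower, against 13.6% and 10.7% of all genes. In actB they were 18.8% and 9.4%, against 14.7% and 6.3%. Without replicate 2 of the cultured groups 19 rose and 0 fell in Pb, where 1127 of all 11299 genes rose and 850 fell. The GSK343 effect differed between Pb and actB for 0 of the 32 by limma, where 28 of all 11299 genes were called. An unadjusted p under 0.05 was found for 10 of the 32, against 1017 of all 11299 genes. With the block 2 of the 32 were called, against 82 of all 11299 genes. These were *Psap* and *Scarb2* (adjusted p = 0.0494 and 0.0374), named here after their values were seen.

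The nutrient sensors that govern autophagy, the mTORC1 and AMPK pathways, were called in both directions at each step. Of 28 tested, 4 rose and 12 fell in actB against nB, 8 rose and 11 fell in Pb against actB, and 7 rose and 14 fell in Pb against nB. The 28.6% higher and 39.3% lower in Pb against actB were near the 27.3% and 42.4% of all genes, whereas 14.3% and 42.9% in actB against nB stood against 40.9% and 36.3%, and 25% and 50% in Pb against nB against 39.5% and 41.1%. *Ddit4*, a stress-induced inhibitor of mTORC1, rose from 9.86 ± 0.427 RPKM in nB to 42.8 ± 1.40 in Pb DMSO (adjusted p = 1.07e-06), and *Sesn2*, a leucine sensor, from 1.85 ± 0.318 to 5.91 ± 0.152 (adjusted p = 9.53e-08). *Prkab2*, an AMPK subunit, fell from 8.49 ± 1.01 to 0.957 ± 0.147 RPKM and *Sesn1* from 45.5 ± 0.481 to 9.15 ± 0.958 (adjusted p = 5.74e-11 and 2.08e-08). With GSK343, 3 rose and 1 fell in actB, and 3 rose and 2 fell in Pb (6 and 1, and 6 and 2, with the replicate block). The shares were 10.7% and 3.6% in actB, near the 8.2% and 2.16% of all genes. In Pb they were 10.7% and 7.1%, near 7.9% and 5%. With the block they were 21.4% and 3.6% in actB, against 14.7% and 6.3%. The block gave 21.4% and 7.1% in Pb, against 13.6% and 10.7%. *Rraga*, a Rag GTPase that recruits mTORC1 to the lysosome, fell in both (log2 fold change -0.40 with an adjusted p of 1.54e-04 in actB and -0.18 with an adjusted p of 0.00981 in Pb), and *Fnip1*, a partner of folliculin, rose in both (0.48 with an adjusted p of 7.40e-04, and 0.25 with an adjusted p of 0.0183). The arginine sensor gene *Castor1*, listed as *Gatsl3*, rose in actB from 2.23 ± 0.327 to 6.66 ± 1.97 RPKM (adjusted p = 7.94e-04), and *Rragd*, a Rag GTPase that Tfeb is known to induce, measured 0.543 ± 0.0608 RPKM in Pb DMSO and 1.12 ± 0.0289 in Pb GSK343. *Rragd* reached the filter of 1 RPKM in the Pb GSK343 libraries only, so it could be tested only because it is high there; it is 1 of the 3 counted as higher in Pb, and its p is not given.

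**Figure D4:**
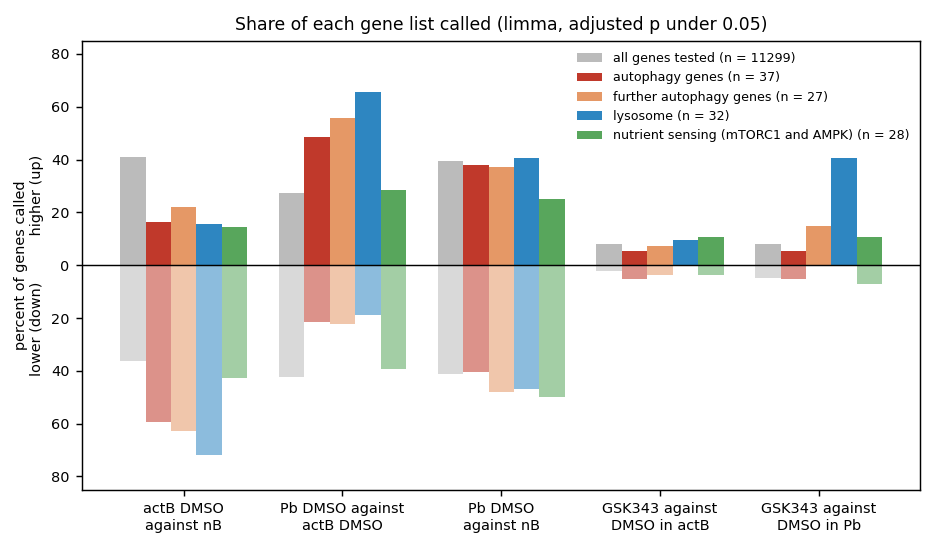
Percent of each gene list called higher (bars above 0) or lower (paler bars below 0) by limma at an adjusted p under 0.05, in 5 comparisons, for all genes tested and 4 lists. The autophagy and lysosome bars lie mostly below 0 for actB against nB and mostly above 0 for Pb against actB, and the lysosome bar for GSK343 in Pb reaches 40.6%.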

How the data were processed

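Reads were mapped by the authors to mm9 with TopHat2 and counted over exons of UCSC Known Gene models, and 1 table of reads per gene scaled to each library's sum (RPM) was deposited with gene lengths; its values are RPM although the table is named for RPKM. Dividing RPM by length in kilobases gave RPKM. Values of RPM were whole multiples of 1 read in 100% of cases (tolerance 0.1 read), so read counts were recovered for the count tests. Depth sets a floor of 3 reads, which covers counting error only. Genes that reached 1 RPKM in 3 or more of the 15 columns were tested with limma (3.58.1, R 4.3.3; trended variance) on log2(RPKM + 0.25), which understates changes of low genes, in 1 fit over 14 libraries of 5 groups, with Benjamini-Hochberg adjustment over all 11299 genes. Scripts were tested on simulated data. Same-numbered libraries of the cultured groups deviated together (r 0.158 to 0.502, 0.435 to 0.713 and 0.219 to 0.356 for numbers 1 to 3). The range was -0.603 to 0.370 over 36 pairs of unlike numbers, which numbers 1 and 3 overlap. The reported fit has no term for the number, so a deviation shared by a number stays in its spread. With the number as a block, genes called with GSK343 went from 1170 to 2375 in actB and from 1458 to 2746 in Pb. A fit with the number as a block used the 12 cultured libraries and nB replicate 3. Alternatives were other pseudocounts, filters and scalings, edgeR (4.0.16), the compared groups alone, all 15 columns, the block, and each library left out. 2 more were added after seeing the data: replicate 2 of each cultured group left out, and edgeR with the block. The genes and lists were chosen with earlier results of these data known. Values per library are given for the 4 largest called rises and falls of each stage comparison among genes whose groups do not overlap, every gene called with GSK343 (up to 6), or the 3 with the smallest p where fewer than 2 were called, and *Ulk1*, *Map1lc3b*, *Gabarap*, *Sqstm1*, *Tfeb*, *Tfe3* and *Mitf*. For the other lists, the 2 largest rises and falls in Pb against nB and up to 3 genes called with GSK343 are named, except a gene that is not reported here. Gene positions are from GENCODE vM1 (mm9).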

Additional observations from a re-analysis of the deposited data

How the results depend on the processing

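The 65 results for named genes were recomputed in 1257 alternatives: 1215 kept their direction and call, 28 lost the call, 13 gained one and 1 reversed, and 54 of the 65 results kept direction and call in all. The reversal was *Gabarap* in Pb against nB under quantile normalization (log2 fold change -0.16, adjusted p = 0.0426), against a log2 fold change of 0.027 with an adjusted p of 0.662 in the reported test. Counts of autophagy genes called in either direction stayed within 1.5 times in the 3 stage comparisons, but the 8 that fell in Pb against actB became 5 under median scaling, 5 under quantile normalization and 4 with edgeR and RLE factors. Over all tested genes, the 4791 that fell at that step became 3899, 4093 and 3953 in the same order. For GSK343 in actB, where 4 autophagy genes were called, 1 was called with the compared groups alone, 11 with the replicate block, 9 with edgeR and the block, and 8 without replicate 2 of the cultured groups; leaving out 1 library gave 1 to 7 (1 without DMSO or GSK343 replicate 1, 2 without DMSO replicate 2 or GSK343 replicate 3, and 7 without GSK343 replicate 2). For GSK343 in Pb, where 4 were called, the replicate block gave 7, edgeR with the block 10, and leaving out 1 library 2 to 4 (2 without replicate 1 or 3 of either group). The count of 0 for the interaction became 1 with edgeR and the block, and was 0 to 1 with 1 library left out (1 without Pb GSK343 replicate 2). Counts over all tested genes shifted as well. With GSK343 in actB, 926 rose and 244 fell in the reported fit. The compared groups alone gave 339 and 47, the block 1666 and 709, and edgeR with the block 1607 and 1322. Without replicate 2 of the cultured groups they were 1179 and 561. With 1 library left out they were 504 and 104 (DMSO replicate 1), 1025 and 338 (DMSO replicate 2) and 521 and 125 (DMSO replicate 3). Without GSK343 replicate 1, 2 or 3 they were 597 and 111, 802 and 341, and 523 and 104. In Pb, 893 and 565 became 1537 and 1209 with the block, and 1657 and 1391 with edgeR and the block. They were 533 and 286 without Pb DMSO replicate 1, and 596 and 325 without replicate 3. Without Pb GSK343 replicate 1 or 3 they were 486 and 255, and 472 and 218. For the interaction, 11 and 17 became 141 and 152 with edgeR and the block, and 18 and 40 without Pb GSK343 replicate 2. The cause of these shifts was not tested. Beside the calls given with the report's results, the fit with the replicate block changed others. It called *Atg4c* lower in actB against nB and *Wipi2* lower in Pb against nB, and dropped *Atg7* in Pb against nB. This fit held 1 nB library, so the block and the smaller nB group cannot be told apart in these calls. Of the genes counted but not under the naming rule, some call was lost with 1 library left out for *Atg7* in actB against nB (highest adjusted p = 0.182), for *Atg101*, *Pik3c3*, *Atg4a* and *Gabarapl2* in Pb against actB (0.0987, 0.155, 0.0837 and 0.185), and for *Rb1cc1*, *Atg101*, *Atg7* and *Map1lc3a* in Pb against nB (0.0803, 0.217, 0.0958 and 0.344). At 15 to 87 reads, *Mitf* is too shallow for a fold change.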
